A study of Mus musculus with 5 samples.

Results

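The guanylate-binding protein genes Gbp2, Gbp2b, Gbp3, Gbp4, Gbp5, Gbp6, Gbp7, Gbp8 and Gbp9 were taken by symbol from the features of the count matrices, 9 of 31053 genes. Cells of enzymatically digested mouse hearts were counted singly in 5 libraries of 10x Genomics 5′ chemistry. The control group was Ctla4+/+Pdcd1-/- (4 mice, 2 libraries, replicates 1 and 2). The disease group was Ctla4+/-Pdcd1-/- (10 mice, 3 libraries, replicates 3, 4 and 5), in a study of myocarditis caused by immune checkpoint inhibitors. Both groups lacked Pdcd1, the gene of the checkpoint receptor PD-1, so neither stands for a wild-type heart, and the disease group also lacked 1 copy of Ctla4, the gene of another such receptor. Hearts were pooled before a sort for DRAQ5+DAPI- cells, so the library is the replicate. The genotype labels of control replicate 2 and of disease replicates 4 and 5 name Pdcd2 or Pdcd3 where the design text names Pdcd1, with numbers that rise by sample, and the design text was followed. Nothing in the labels says that libraries of a group came from separate mice, so p-values measure the spread between libraries, which may be technical.

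Guanylate-binding proteins are large GTPases that interferons induce in most cell types, interferon-gamma most strongly. They assemble on the membranes of vacuoles that hold microbes and on bacteria in the cytosol, and they bring inflammatory caspases and antimicrobial effectors to them. Several carry a C-terminal signal for prenylation, a lipid anchor to membranes. Interferon-gamma acts through the receptor pair Ifngr1 and Ifngr2 and the kinases Jak1 and Jak2, and Gbp genes are common readouts of that route in inflamed tissue.

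The family lies in 2 clusters of the GRCm38 (mm10) genome (GENCODE). Gbp5, Gbp7, Gbp3, Gbp2b and Gbp2 lie on the plus strand of chromosome 3 between positions 142493978 and 142638008. Gbp8, Gbp9, Gbp4 and Gbp6 lie on the minus strand of chromosome 5 between 105014150 and 105293698. The clusters differ in how well a 5′ read can be placed. The chromosome 3 members shared 0 of the 50-base words in the first 300 bases of their transcripts with another Gbp gene. On chromosome 5 the shared part was 35.9% for Gbp4, 41.8% for Gbp8, 47.0% for Gbp9 and 54.6% for Gbp6, and the gene models of Gbp4, Gbp8 and Gbp9 overlap on the same strand. The coding sequences of Gbp6 and Gbp9 are 89.6% identical and those of Gbp4 and Gbp6 87.2%. Of the shared words, 90 of Gbp6 are in Gbp10 and 68 of Gbp9 are in Gbp11, genes outside the 9 members. Whether reads from shared parts were counted, and for which gene, is therefore uncertain for the chromosome 5 members. The same limit holds for the family sums and for shares of family UMIs. The closest chromosome 3 pairs, Gbp2 with Gbp2b (82.5% identical) and Gbp3 with Gbp7 (76.0%), are told apart by these words.

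Promoters of chromosome 3 members are shown because these genes share a motif that interferon-activated factors bind. Each line gives the 250 bases before the RefSeq start (GRCm38.p6, plus strand, 5′ to 3′), in lower case with 2 motifs in capitals. The first is the interferon-stimulated response element, searched as GAAA, any 2 bases and GAAA, and on the other strand as TTTC, any 2 bases and TTTC. The second is the gamma-activated site TTCNNNGAA, which reads the same on both strands. The windows are chr3:142594597-142594846 for Gbp2b, chr3:142559794-142560043 for Gbp3, chr3:142496684-142496933 for Gbp5 and chr3:142530086-142530335 for Gbp7.
Gbp2b promoter: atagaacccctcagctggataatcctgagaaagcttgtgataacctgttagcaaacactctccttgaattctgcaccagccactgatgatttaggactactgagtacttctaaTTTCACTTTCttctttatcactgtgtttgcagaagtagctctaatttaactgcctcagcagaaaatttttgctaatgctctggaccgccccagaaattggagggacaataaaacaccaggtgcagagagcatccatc
Gbp3 promoter: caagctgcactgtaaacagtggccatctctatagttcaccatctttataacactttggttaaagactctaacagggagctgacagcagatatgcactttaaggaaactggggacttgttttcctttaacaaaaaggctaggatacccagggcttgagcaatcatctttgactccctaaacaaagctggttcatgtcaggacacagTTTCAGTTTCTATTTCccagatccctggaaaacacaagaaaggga
Gbp5 promoter: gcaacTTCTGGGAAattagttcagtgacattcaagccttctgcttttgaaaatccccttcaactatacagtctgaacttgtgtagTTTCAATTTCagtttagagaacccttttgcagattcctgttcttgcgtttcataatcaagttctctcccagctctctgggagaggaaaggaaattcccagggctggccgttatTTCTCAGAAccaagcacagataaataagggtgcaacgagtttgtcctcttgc
Gbp7 promoter: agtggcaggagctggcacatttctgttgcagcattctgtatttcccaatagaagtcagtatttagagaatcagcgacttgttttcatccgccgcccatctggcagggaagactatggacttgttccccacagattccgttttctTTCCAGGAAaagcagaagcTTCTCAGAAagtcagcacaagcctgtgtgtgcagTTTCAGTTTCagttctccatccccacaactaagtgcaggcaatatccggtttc
The response element was found in 5 of 5 windows of the chromosome 3 members, against 978 of 32851 RefSeq windows of the same length (2.98%). The Gbp2 window held it as TTTCACTTTC from 59 to 50 bases before the start, the same 10 letters as in Gbp2b, where they lie from 137 to 128 bases before the start. Gbp3 held 2 overlapping copies. Gbp5 and Gbp7, alone among the 5, also held the gamma-activated site, in 2 copies each, against 2306 windows in all (7.02%). Both motifs together were in 109 windows (0.332%). By GENCODE, Gbp2 starts at 142620602 and Gbp5 at 142493978. The response element in the Gbp2 window (chr3:142620413-142620662) and the whole Gbp5 window thus lie inside those gene models. Gbp4, Gbp6, Gbp8 and Gbp9 had no entry in the promoter table used. A match describes letters and does not show that a factor binds there.

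Of 47319 barcodes, 35838 cells were kept, between 5338 and 9158 per library, with medians of 3317 to 4479 unique molecular identifiers (UMIs) per cell. Before doublets were removed, the filters took out 32.5% of barcodes in disease replicate 3 and 12.4 to 21.4% in the other libraries. The part of this loss in the family levels was not tested. Deposited totals ran from 24991704 to 55053988 UMIs per library, and libraries shared 86 to 161 barcodes per pair. Each cell was gated to a lineage by the markers it contained. Levels are UMIs of a gene per 1000000 UMIs (CPM) of the summed cells of a lineage in a library, and 5 values in a row are always control replicates 1 and 2 against disease replicates 3, 4 and 5. In the endothelial, fibroblast, monocyte/macrophage and T gates the gate's own markers summed to 3342 CPM or more in every library, and those of any other gated lineage to at most 744 CPM. In the B gate its own markers summed to 7280 CPM or more, while dendritic markers reached 1207 CPM and monocyte/macrophage markers 709 CPM. Red cell markers reached 4293 CPM in endothelial cells, cardiomyocyte markers 986 CPM there, and platelet markers 2351 CPM in the monocyte/macrophage gate. Their part in the family levels was not tested. Ctla4 in the T gate was at 440.3 and 73.4 CPM against 155, 647 and 548 CPM, so the loss of 1 copy could not be read from it. Pdcd1 in the T gate was at 586 and 68.5 CPM against 263, 1062 and 820.0 CPM, although both groups are labelled as lacking it. A 5′ tag outside the deleted part checks nothing, and the labels do not say which part was deleted.

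Endothelial cells held the highest family level of the 5 gates with at least 50 cells in every library. The 9 members summed to 1422 and 892 CPM against 918, 3443 and 1471 CPM there. Monocytes and macrophages had 445 and 186 CPM against 269.8, 1949 and 823 CPM, and fibroblasts 292 and 133 CPM against 159.9, 1879 and 576 CPM. The order of libraries was the same in these 3 lineages, with disease replicate 4 highest, then disease replicate 5, control replicate 1, disease replicate 3 and control replicate 2.

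T cells carried less of the family, 285 and 206 CPM against 195, 492 and 330.1 CPM, and B cells least, 159 and 72.9 CPM against 103, 198 and 139.6 CPM. Disease replicate 4 was again highest in both, and control replicate 1 lay above disease replicate 3. Of all family UMIs in a library, endothelial cells contributed 55.2 and 77.6% against 69.3, 27.1 and 50.4%. In disease replicate 4 alone, fibroblasts (30.7%) and the monocyte/macrophage gate (29.5%) each contributed more than the endothelium.

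Gates with few cells are given as values, without a test of disease against control. Mural cells and neutrophils entered the fit between lineages only in libraries with at least 50 such cells, and those contrasts are not given. Schwann cells (17 to 43 per library), the glia of cardiac nerves, had 803 and 495 CPM against 363, 6021 and 1628 CPM, and Gbp2 alone reached 3748 CPM in the 24 Schwann cells of disease replicate 4. Mural cells (31 to 62 per library), which are pericytes and smooth muscle, had 202 and 122 CPM against 136, 1123 and 204 CPM. Neutrophils (18 to 70 per library) had 225 and 92.1 CPM against 529.8, 356 and 188 CPM, with disease replicate 3 highest, on 18 cells. NK cells (10 to 49 per library) had 199.6 and 77.3 CPM against 115, 303 and 107 CPM, with disease replicate 4 highest. In dendritic cells (2 to 23 per library) it was also highest, at 541 CPM.

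**Figure D1:**
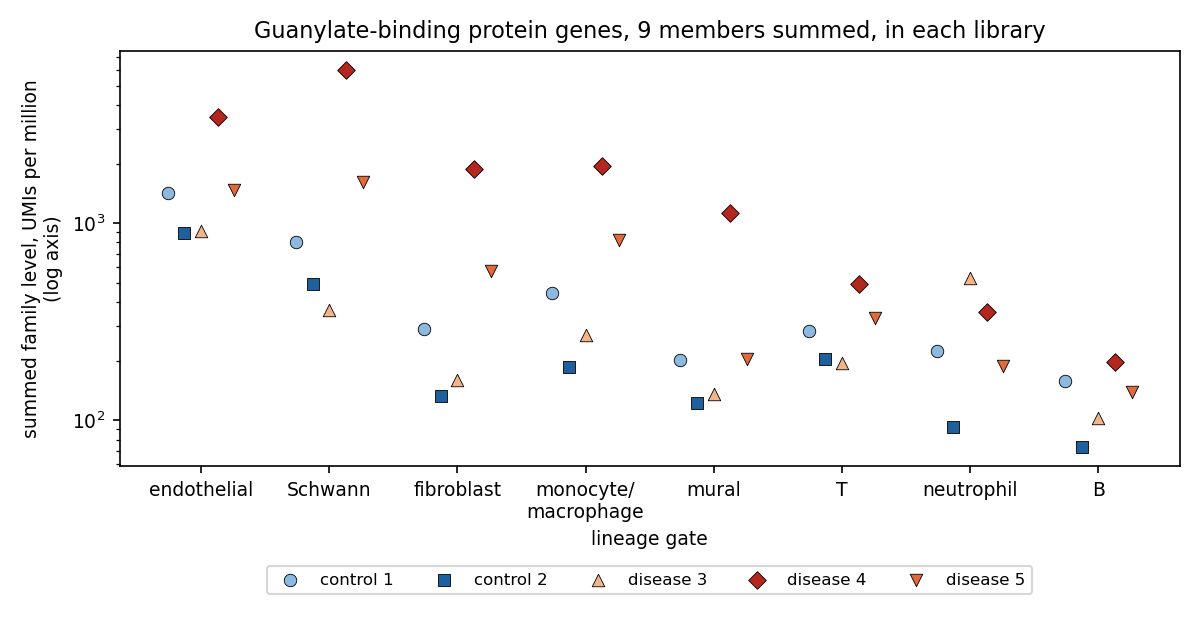
Summed level of the 9 guanylate-binding protein genes (CPM, log axis) in 8 lineage gates, 1 point per library. Disease replicate 4 is the highest library in every gate except neutrophils, and control replicate 1 lies above disease replicate 3 in every gate except neutrophils.

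The members were ranked over the 5 gates with at least 50 cells in every library, by the mean of log2(CPM + 1) over libraries. Of these gates the endothelium was highest for 7 members, the monocyte/macrophage gate for Gbp2b and T cells for Gbp8. Schwann cells and the other gates with few cells were not ranked. Lineages were compared inside libraries with edgeR's quasi-likelihood test, with the library as a block and Benjamini-Hochberg adjustment over 14144 genes. For Gbp2, Gbp2b, Gbp3, Gbp4, Gbp5, Gbp7 and Gbp9 the leading lineage was above each of the other 4 in 5 of 5 libraries and passed at an adjusted p under 0.05.

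Calls between lineages were frequent over all genes. In the endothelium 7 members were higher and 0 lower than in fibroblasts (30.9% of all genes higher, 33.4% lower), 7 higher and 2 lower than in the monocyte/macrophage gate (34.4% and 33%), and 6 higher and 1 lower than in T cells (36.7% and 33.1%). In fibroblasts 0 were higher and 6 lower than in the monocyte/macrophage gate (35.9% and 33.3%), and 3 higher and 4 lower than in T cells (39.9% and 34.3%). The monocyte/macrophage gate had 5 higher and 0 lower than T cells (33.1% and 30.5%). B cells had 1 higher and 7 lower than endothelial cells (23.2% and 33.7%) and 1 higher and 5 lower than fibroblasts (25.9% and 38%). Against the monocyte/macrophage gate they had 0 higher and 7 lower (19.2% and 30.1%), and against T cells 1 higher and 4 lower (12.4% and 21.6%). The 1 member higher in B than in endothelial cells, Gbp2b, had an adjusted p of 0.738 without disease replicate 4.

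Gbp7 and Gbp2 had the highest endothelial levels of the family. Gbp7 was at 351 and 225 CPM against 239.7, 664 and 305 CPM, and it exceeded Gbp2 in control replicates 1 and 2 and disease replicate 3. The monocyte/macrophage gate came next for Gbp7, at 92.6 and 86.8 CPM against 87.4, 247 and 118 CPM, lower than the endothelium by a log2 difference of 1.12 (SE 0.18, edgeR adjusted p 2.5e-06, 5 of 5 libraries). Gbp2 was at 331 and 182 CPM against 202, 1098 and 417 CPM in the endothelium, and it exceeded Gbp7 in disease replicates 4 and 5.

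In fibroblasts Gbp2 was the leading member, at 139 and 61.9 CPM against 77.2, 919 and 283 CPM, and it made up 48.1% ± 1.06 (SD, n = 5) of the fibroblast family UMIs. That share lay between 46.6 and 49.2% in the 5 libraries, while the level ran from 61.9 to 919 CPM. The endothelium was above fibroblasts for Gbp2 by a log2 difference of 0.83 (SE 0.22, edgeR adjusted p 0.00141, 5 of 5 libraries). Fibroblasts and the monocyte/macrophage gate, its next neighbours, did not differ beyond their spread, with a log2 difference of -0.071 (SE 0.22, edgeR adjusted p 0.795). Nor did T and B cells, with 0.63 (SE 0.35, edgeR adjusted p 0.185).

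Gbp4, Gbp9, Gbp3 and Gbp5 also led in the endothelium. Gbp4 was at 244 and 143 CPM against 139.5, 538 and 233 CPM there and at 14.5 and 2.73 CPM against 2.82, 169 and 49.0 CPM in fibroblasts, a log2 difference of 3.35 (SE 0.38). Gbp9 was at 166 and 136 CPM against 139.8, 295 and 171 CPM in the endothelium and differed from fibroblasts by 3.30 (SE 0.24), a step of like size. In both genes T cells came second by mean level, without a step past the spread to the lineage after them.

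Gbp3 was at 205 and 139 CPM against 126, 467 and 207 CPM in the endothelium. Gbp5, which is known for promoting inflammasome assembly, was at 77.9 and 47.8 CPM against 53.3, 219.9 and 83.2 CPM. For both the monocyte/macrophage gate came second, lower by 1.16 (SE 0.21) for Gbp3 and by 1.81 (SE 0.20) for Gbp5 on the log2 scale.

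Gbp6 showed no leading lineage beyond its spread. Endothelial cells had 39.9 and 18.5 CPM against 16.8, 113 and 41.2 CPM and fibroblasts 22.1 and 10.9 CPM against 9.53, 137 and 46.4 CPM, a log2 difference of 0.23 (SE 0.16, edgeR adjusted p 0.216, 3 of 5 libraries). T cells followed at 20.3 and 2.45 CPM against 7.57, 65.5 and 35.2 CPM. Without disease replicate 4 the endothelial lead over fibroblasts passed, at a log2 difference of 0.43 (edgeR adjusted p 0.0224).

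Below the leading lineage the order was less clear. Of 36 steps between neighbouring lineages, 4 for each member, 19 passed and 17 did not. B cells were lowest for 6 members, fibroblasts for Gbp2b and Gbp9, and T cells for Gbp3. In the T gate the family UMIs were spread over several members, with Gbp4 at 20.1% ± 1.42, Gbp2 at 19.0% ± 4.86, Gbp7 at 18.5% ± 3.27 and Gbp8 at 13.1% ± 2.02 (SD, n = 5 each).

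**Figure D2:**
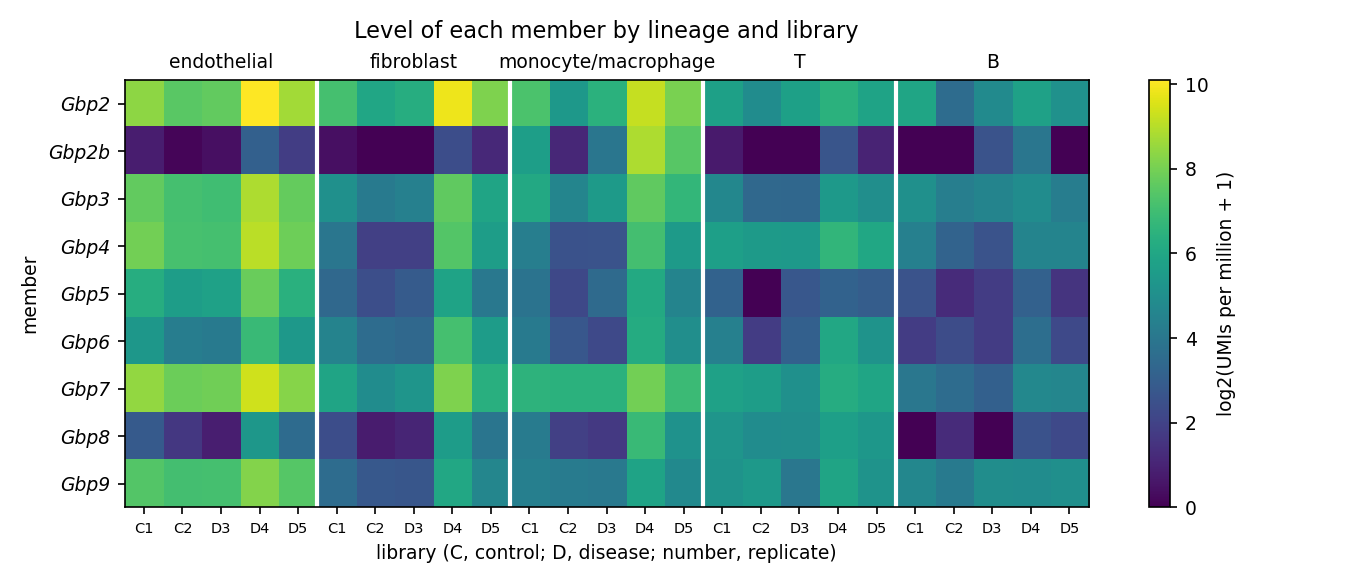
Level of each member, log2(CPM + 1), in 5 lineage gates and 5 libraries (columns, C for control and D for disease). The endothelial block is brightest for 7 members, Gbp2b is bright mainly in the monocyte/macrophage block, and D4 is the brightest column in most blocks.

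Gbp2b, formerly called Gbp1 in mouse, was read mostly in the monocyte/macrophage gate, at 49.1 and 1.21 CPM against 14.6, 464 and 179 CPM. Disease replicates 4 and 5 lay above both controls, while disease replicate 3 lay between them. In endothelial cells Gbp2b was at 0.755 and 0.115 CPM against 0.348, 7.62 and 2.57 CPM, and in fibroblasts at 4.24 CPM or less in every library.

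The monocyte/macrophage gate exceeded the endothelium in Gbp2b by a log2 difference of 6.40 (SE 0.22, edgeR adjusted p 2.4e-21, 5 of 5 libraries). It exceeded fibroblasts by 7.28 (SE 0.23), T cells by 6.50 (SE 0.27) and B cells by 5.07 (SE 0.32), each in 5 of 5 libraries. Markers of the monocyte/macrophage gate summed to 143 to 520.0 CPM in control and 279 to 633 CPM in disease endothelium, with none of the 10 at 0. Their part in the low endothelial Gbp2b counts was not tested.

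To compare shares of cells at 1 depth, each cell was thinned to 1000 UMIs. Gbp2b was then found in 3.48 and 0% against 0.936, 24.9 and 8.32% of monocytes and macrophages. The count of 0 in the 471 cells of control replicate 2 allows a share of cells with a UMI of up to 0.637%. In endothelial cells the share was 0.0344 and 0% against 0, 1.09 and 0.266%. Gbp2, its neighbour on chromosome 3, was found in 28.7% of monocytes and macrophages and in 37.7% of endothelial cells of disease replicate 4, where Gbp2b was in 24.9% and 1.09%.

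Gbp8 was the member with its highest level in T cells among the 5 gates, at 37.7 and 29.4 CPM against 30.3, 50.5 and 39.9 CPM. In the monocyte/macrophage gate it was at 17.4 and 2.81 CPM against 2.17, 115 and 34.2 CPM, above the T cells in disease replicate 4 and below them in the other libraries. T cells and that gate did not differ beyond their spread, with a log2 difference of 0.37 (SE 0.36, edgeR adjusted p 0.39, 4 of 5 libraries). Without disease replicate 4 the difference passed, with an edgeR adjusted p of 0.013.

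T cells were above endothelial cells in Gbp8 by 2.32 (SE 0.38), above fibroblasts by 2.14 (SE 0.37) and above B cells by 4.25 (SE 0.83) on the log2 scale, each in 5 of 5 libraries with an adjusted p under 0.05. Of the 105 words that Gbp8's first 300 bases share with other Gbp genes, 68 are in Gbp9, so the limit on chromosome 5 counts applies here.

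**Figure D3:**
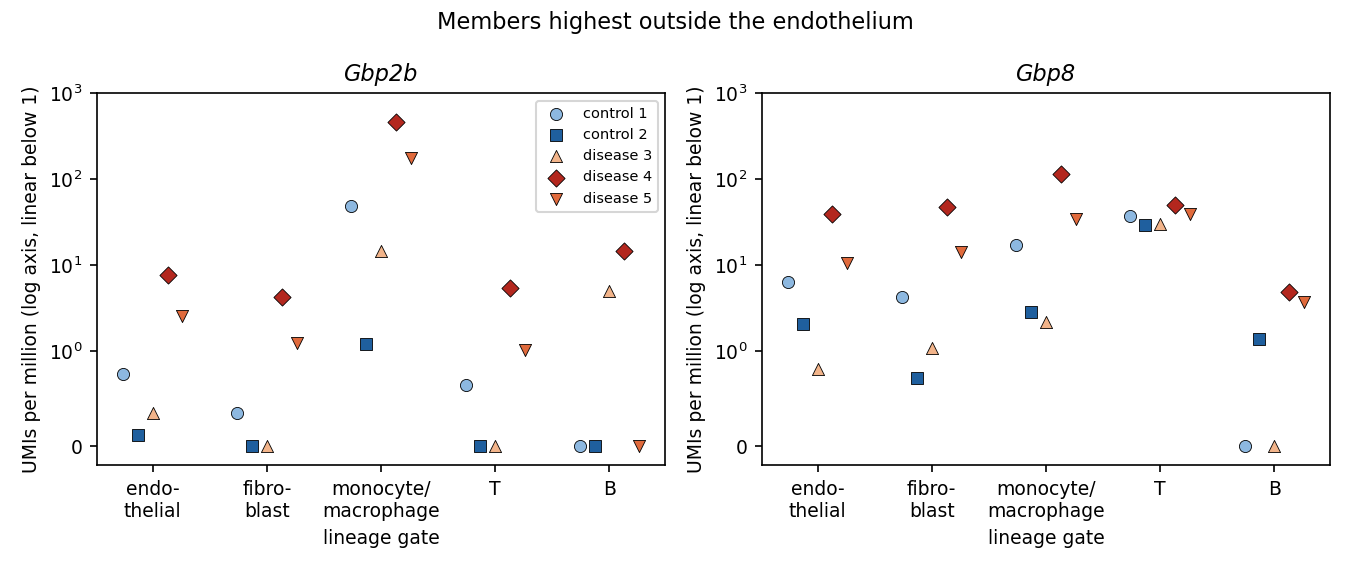
Gbp2b and Gbp8 levels (CPM, log axis, linear below 1) in 5 lineage gates, 1 point per library. Gbp2b is highest in the monocyte/macrophage gate in each library, and Gbp8 lies between 29.4 and 50.5 in T cells while it spans 2.17 to 115 in the monocyte/macrophage gate.

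The comparison of disease with control asks how the family differs in hearts that lack 1 copy of Ctla4. In the library values the groups overlapped. Control replicate 1 lay above disease replicate 3 for 9 of 9 members in each of the endothelial, fibroblast, monocyte/macrophage and T gates. Disease replicate 4 was the highest library for 9 of 9 members in the first 3 of these gates and for 8 of 9 in T cells. In those 4 gates the groups were apart, with every disease library above or every one below both controls, for 0 members. The same was so for 50.4% of all genes tested in the endothelium, 50.3% in fibroblasts, 36.9% in the monocyte/macrophage gate and 31.6% in T cells. In B cells, where 39.7% of genes were apart, so was 1 of 9 members, Gbp9, named after its values were seen, at 24.9 and 16.5 CPM against 30.0, 29.1 and 31.6 CPM.

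Relative to the control mean, the fibroblast family sum was 0.753-fold, 8.85-fold and 2.71-fold in disease replicates 3, 4 and 5. The monocyte/macrophage sum was 0.855-fold, 6.18-fold and 2.61-fold, the endothelial sum 0.794-fold, 2.98-fold and 1.27-fold and the T cell sum 0.793-fold, 2.00-fold and 1.34-fold. Disease replicate 3 was below the control mean in each of the 4 gates and disease replicates 4 and 5 above it, most of all in fibroblasts.

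With edgeR's quasi-likelihood test on UMIs summed per library, 0 members passed in any gate at an adjusted p under 0.05. All tested members had a positive log2 fold change. Their median was 0.83 in the endothelium (9 of 9 tested; 12.2% of 12578 genes called, 0.326% higher) and 1.88 in fibroblasts (9 of 9; 12.9% called, 0.39% higher). It was 1.83 in the monocyte/macrophage gate (9 of 9; 6.8% called, 0.0543% higher), 0.38 in T cells (8 of 9; 5.43% called, 0.0103% higher) and 0.56 in B cells (5 of 9; 9.47% called, 0.47% higher). Over all genes tested the medians lay between -0.0090 and 0.050. Gbp2b failed the filter on low counts in T cells, as did Gbp2b and 3 others in B cells.

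No single member passed, and the fitted values had wide errors. In the monocyte/macrophage gate Gbp2b had the highest log2 difference, 3.18 (SE 1.61, edgeR adjusted p 0.344), with adjusted p values from 0.00107 to 0.795 over its 12 alternatives. Gbp4 in fibroblasts had 2.96 (SE 1.59, edgeR adjusted p 0.29) and Gbp2 there 2.03 (SE 1.05, edgeR adjusted p 0.274). In the endothelium Gbp9 and Gbp7 had the smallest, 0.35 (SE 0.32, edgeR adjusted p 0.547) and 0.41 (SE 0.47, edgeR adjusted p 0.623). In T cells Gbp6 had 1.39 (SE 0.76, edgeR adjusted p 0.454), from levels of 20.3 and 2.45 CPM against 7.57, 65.5 and 35.2 CPM.

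At an unadjusted p under 0.05 edgeR gave 0 members in any gate, against 24.7% of all genes in the endothelium, 28.1% in fibroblasts, 18.7% in the monocyte/macrophage gate, 15.8% in T cells and 24.4% in B cells. DESeq2 gave 1 member, in the endothelium (14.1% of all genes), and 0 adjusted calls. Without the filter on low counts edgeR called 8 of 9 members higher in the monocyte/macrophage gate (1.2% of 18638 genes higher), 1 in T cells (0.341% of all genes higher) and 1 in B cells (1.29%). Called genes were mostly lower in disease, and the members' first 300 bases had 47.0 to 52.7% GC against a median of 60.7% over genes tested in the endothelium. The members' bases are of the transcript with the longest coding sequence, while the median uses each gene's longest transcript, protein-coding where it has one. In the endothelium that median was 67% for genes with every disease library below both controls and 57% for those with every one above. The part of base composition was not tested, and the labels name no batch.

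When disease replicate 4 was left out, the members' median log2 difference became -0.042 in the endothelium (3 of 8 tested members positive), 0.71 in fibroblasts (8 of 8), 0.74 in the monocyte/macrophage gate (9 of 9), 0.16 in T cells (6 of 8) and 0.11 in B cells (2 of 3). Without control replicate 1 it was 3.18 in the monocyte/macrophage gate, 0.87 in T cells and 0.96 in B cells. Without control replicate 2 it was 0.42 in the endothelium and -0.072 in B cells. Without disease replicate 3, 9 members in fibroblasts (31.5% of all genes), 9 in the monocyte/macrophage gate (25.4%) and 3 in the endothelium (24.2%) had an unadjusted p under 0.05, with 0 adjusted calls.

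**Figure D4:**
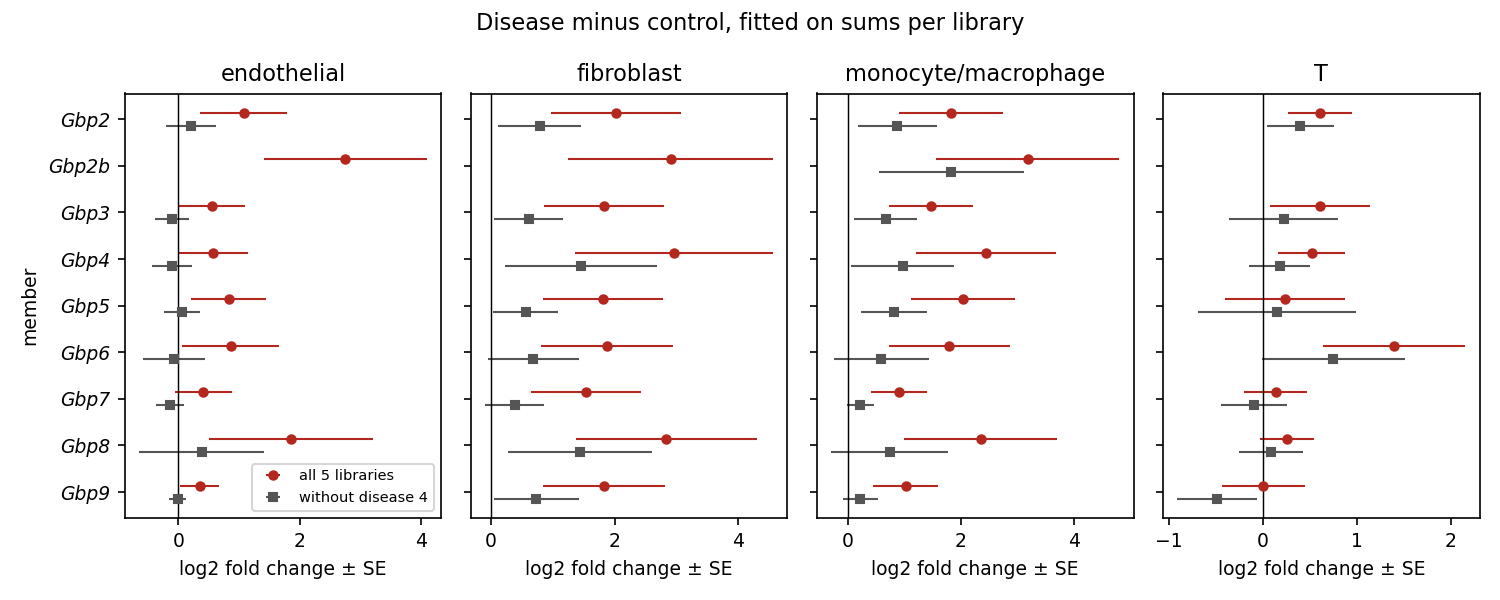
Log2 fold change of each member, disease minus control, with its standard error, in 4 lineage gates, fitted on all 5 libraries (circles) and without disease replicate 4 (squares, missing where a member failed the filter). The circles lie at or right of 0, and in the endothelium the squares gather around 0.

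The share of T cells had the same order of libraries as the family in endothelium, fibroblasts and the monocyte/macrophage gate. T cells were 6.43 and 1.78% against 2.18, 24.4 and 7.87% of kept cells. Ifng, the gene of interferon-gamma, was at 370.3 and 29.4 CPM against 221, 418 and 317 CPM in T cells and at 28.4 and 1.12 CPM against 6.43, 107 and 31.9 CPM over all cells, the latter again in that order. Markers of T cells summed to at most 35.2 CPM in control and 113 CPM in disease endothelium. The part of T cell numbers or of Ifng in the family level was not tested.

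Over all kept cells the family summed to 592 and 449 CPM against 459, 1694 and 854 CPM. The members' median log2 fold change was 0.92, with 0 of 9 called by edgeR or DESeq2 (6.51% of 16028 genes called by edgeR, 0.0374% higher) and 0 at an unadjusted p under 0.05. Without disease replicate 4 the median was 0.27. In such sums fewer cells of a type and less RNA per cell cannot be told apart.

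Shares of cells with a family UMI were compared at 1 depth. After thinning to 1000 UMIs, with 91 to 288 shallower cells per library left out, 62.9 and 51.7% against 53.5, 70.0 and 57.8% of endothelial cells held one. The Wilson 95% interval in disease replicate 4 was 68.0 to 72.0%, and intervals cover counting error only. Endothelial cells with 3 or more family UMIs made up 18.7 and 9.56% against 9.93, 37.1 and 15.8%, highest in disease replicate 4. Unthinned, at medians of 2184 to 3064.5 UMIs, the endothelial shares were 86.8 and 78.0% against 78.4, 82.8 and 79.8%.

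In fibroblasts the thinned shares were 17.8 and 12.2% against 12.8, 47.0 and 21.6%, and in the monocyte/macrophage gate 25.2 and 17.8% against 19.1, 59.0 and 28.3%. B cells, the gate of lowest level, had 10.7 and 3.98% against 9.09, 13.5 and 13.3%. In fibroblasts and in the monocyte/macrophage gate disease replicate 4 was highest and disease replicate 3 lay between the controls. Unthinned, the monocyte/macrophage shares were 61.1 and 43.4% against 53.6, 82.1 and 59.5%. Those of fibroblasts were 55.02 and 45.9% against 47.3, 74.1 and 55.5%, and those of B cells 30.2 and 16.7% against 23.6, 32.5 and 29.7%. Cells left out as shallower numbered 11 to 28 per library in fibroblasts and 29 to 77 in the monocyte/macrophage gate.

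Subsets were read by markers within gates and have no test. Capillary endothelial-like cells (1916 to 2838 per library) were at 1457 and 910.1 CPM against 918, 3348 and 1459 CPM. They made up most of the gate (2217 to 3241 cells per library), so their level was bound to be close to it. Arterial endothelial-like cells (38 to 49 per library) were at 1188 and 881 CPM against 719, 2625 and 841 CPM, lower in 5 of 5 libraries. Endocardial-like cells, read in 4 libraries, had 345 to 794 CPM, below capillary-like cells of the same library each time. Venous endothelial-like cells (13 to 22, in 4 libraries) were at 1760.5 CPM in control replicate 1 and at 686, 5368 and 536 CPM in disease. They were above capillary-like cells in control replicate 1 and disease replicate 4 only. Endothelial cells without a subset name were at 1265 and 832 CPM against 1041, 4144.5 and 1788 CPM, above capillary-like cells in the disease libraries only.

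Macrophages with resident markers carried less of the family than other cells of their gate. Resident-like macrophages (388 to 904 per library) were at 327 and 183 CPM against 217, 1573 and 522 CPM. Cells of the gate without a subset name (103 to 617 per library) were at 641 and 219 CPM against 482, 2290.1 and 1255 CPM, higher in 5 of 5 libraries. Monocyte-like cells (15 to 123, in 4 libraries) were at 911 CPM in control replicate 1 and at 440.1, 2305 and 1917 CPM in disease. Gbp2b in disease replicate 4 was at 401 CPM in resident-like cells, 371 CPM in monocyte-like cells and 563 CPM in cells without a subset name. Resident-like cells had 25.8 CPM in control replicate 1 and monocyte-like cells 123 CPM. The same pair was at 7.04 and 0 CPM in disease replicate 3 and at 99.0 and 336 CPM in disease replicate 5. CD8 T-like cells were at 260.5 and 260.1 CPM against 196, 492 and 334 CPM and CD4 T-like cells (19 to 152 per library) at 492 and 138 CPM against 238, 442 and 356 CPM.

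Whether the disease effect differed between lineages was tested with a lineage by group term inside libraries for 6 pairs of lineages, and 0 members passed in edgeR at an adjusted p under 0.05. Between endothelium and fibroblasts (0.263% of 14086 genes called) the term was negative for 9 of 9 members with a median of -1.03 (-0.15 over all genes), meaning a smaller fold in the endothelium. At an unadjusted p under 0.05 there were 8 of them, against 15.9% of all genes. Gbp8 had the lowest adjusted p, at a log2 term of -1.19 (SE 0.26, edgeR adjusted p 0.0957), and Gbp6 followed with -1.03 (SE 0.24, edgeR adjusted p 0.112). Without disease replicate 3, 7 of 9 passed, all negative, where 0.407% of all genes passed as negative and 0.9% as positive.

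Between fibroblasts and T cells (0.0142% of 14041 genes called) the term was positive for 9 of 9 members, with a median of 1.31 (0.15 over all genes) and 6 unadjusted calls (6.07% of all genes). Gbp9 had the lowest adjusted p, with a log2 term of 1.87 (SE 0.43, edgeR adjusted p 0.242). The term passed as positive for 3 members without control replicate 1 (0.518% of all genes), for 6 without disease replicate 3 (0.743%) and for 2 without disease replicate 5 (0.108%). Endothelium with the monocyte/macrophage gate (0.0146% called) had 2 unadjusted calls (6.01% of all genes) and, without disease replicate 3, 1 adjusted call (0.125% of all genes negative). Endothelium with T cells (0.00751% called), fibroblasts with the monocyte/macrophage gate (0.0565% called) and the monocyte/macrophage gate with T cells (0.00871% called) had 0, 0 and 2 unadjusted calls, against 5.88%, 6.01% and 4.62% of all genes. DESeq2 was not run on these terms.

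Cells with transcripts of the interferon-induced chemokines Cxcl9 or Cxcl10, which attract T cells through Cxcr3, were compared with the other cells of their lineage and library. In the monocyte/macrophage gate 9 of 9 members were higher in cells with a chemokine UMI, with a median log2 difference of 2.30 (14.9% of 9355 genes higher). In fibroblasts 8 of 8 tested members were higher, with a median of 1.91 (4.76% of 11796 genes higher). In the endothelium 8 of 8 were higher, with a median of 0.94 (6.35% of 10969 genes higher). Over all genes tested the medians were between -0.027 and -0.0011. Gbp2b failed the filter on low counts in endothelium and fibroblasts. In 5 of 5 libraries 7 members were higher in the monocyte/macrophage gate, 7 in fibroblasts and 5 in the endothelium.

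The family sum was higher in cells with a chemokine UMI in 5 of 5 libraries in each of the 3 lineages, controls included. In fibroblasts with a chemokine UMI it was 749 and 204 CPM against 349.8, 2894 and 1762 CPM, and in fibroblasts without one 212 and 127 CPM against 147, 916 and 269.9 CPM. In the monocyte/macrophage gate the ratio ran from 1.29 in control replicate 2 to 5.78 in disease replicate 5, and in the endothelium from 1.07 in disease replicate 3 to 2.87 in disease replicate 4. Cells without a chemokine UMI still had their highest family level in disease replicate 4 in each of the 3 lineages.

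Gbp2b in the monocyte/macrophage gate had the highest difference there, 2.84 (SE 0.29, edgeR adjusted p 1.9e-05), and Gbp2 had 2.60 (SE 0.22, edgeR adjusted p 3.4e-06), both in 5 of 5 libraries. Gbp4 in fibroblasts had 2.76 (SE 0.20, edgeR adjusted p 1.7e-07), in 5 of 5 libraries. Gbp9 in the monocyte/macrophage gate had 0.77 (SE 0.21, edgeR adjusted p 0.0157), in 3 of 5 libraries, while leaving out disease replicate 4 gave an adjusted p of 0.102 and leaving out disease replicate 5 gave 0.0845. Cells with a chemokine UMI were deeper, with medians of 6664 to 8841 UMIs in the monocyte/macrophage gate against 4307.5 to 5606.5 UMIs in the cells without. The part of depth in these differences was not tested.

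**Figure D5:**
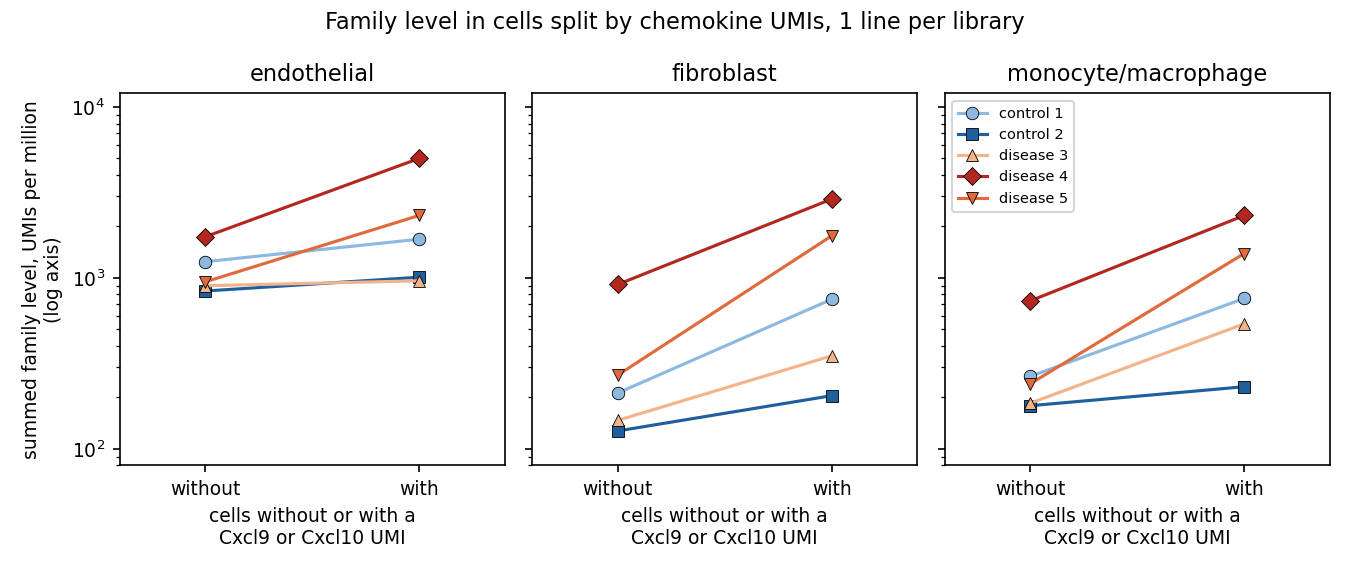
Summed family level (CPM, log axis) in cells without and with a Cxcl9 or Cxcl10 UMI, in 3 lineage gates, 1 line per library. Each line rises from left to right, steeply in fibroblasts and the monocyte/macrophage gate of disease replicate 5 and least in the endothelium of disease replicate 3.

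Genes of the route that induces the family were called lower in disease or not called. Of the 13 genes of the interferon-gamma route, 0 were called higher and 4 lower in disease endothelium (Jak1, Socs3, Socs1 and Ifngr2), 0 and the same 4 in fibroblasts, 0 and 2 of 12 tested in the monocyte/macrophage gate, 0 and 2 in T cells and 0 and 3 of 12 tested in B cells. Ifngr2, the signalling chain of the receptor, fell in the endothelium, with levels of 49.0 and 39.2 CPM against 12.9, 9.87 and 12.97 CPM and a log2 difference of -1.95 (SE 0.18, edgeR adjusted p 0.00174). Socs1, a feedback inhibitor of the route, fell in T cells, with 98.4 and 120.0 CPM against 3.78, 6.56 and 6.83 CPM and -4.15 (SE 0.31, edgeR adjusted p 0.00314). Every disease library lay below both controls for Ifngr2, Socs1, Socs3 and Jak1 in each of the 5 gates, as it did for 20.7 to 26% of all genes tested in a gate. The first 300 bases of that wider set had a median GC of 66.7 to 67.7% against 60.3 to 60.7% over all genes tested. Socs1 had 72.3%, Socs3 69.3%, Jak1 67.3% and Ifngr2 65.3%. The part of base composition in these falls was not tested.

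Irf1, a transcription factor that interferon-gamma induces, was at 398 and 496 CPM against 399.7, 326 and 394 CPM in the monocyte/macrophage gate, lowest in disease replicate 4. Of the type I interferon route 0 genes were called higher and 2 of 6 tested lower in endothelium and in fibroblasts, Ifnar2 and Ifnar1, the chains of its receptor. In the monocyte/macrophage and T gates 1 of 6 was lower, Ifnar2, which was also the 1 of 5 in B cells. Ifnb1, a type I interferon, reached 2.43 CPM in the monocyte/macrophage gate of disease replicate 4 and had 0 UMIs in the endothelial, fibroblast and T gates.

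Other interferon-inducible GTPases, which include the immunity-related GTPases of vacuole defence, had 0 calls in either direction in the 5 gates. Their median log2 fold change was 0.30 in the endothelium (13 of 13 tested positive), 1.12 in fibroblasts (13 of 14), 0.68 in the monocyte/macrophage gate (12 of 14), 0.57 in T cells (12 of 12) and 0.46 in B cells (5 of 6). Igtp, one of them, was at 103 and 49.5 CPM against 44.3, 526 and 185 CPM in fibroblasts. Gbp10, a further guanylate-binding protein gene, was at 18.2 and 6.10 CPM against 3.95, 104 and 27.7 CPM in the endothelium. Both were highest in disease replicate 4 and lowest in disease replicate 3, so the groups overlapped. The 2 tested chemokines had 0 calls, with medians of 1.33 in the endothelium, 2.81 in fibroblasts and 2.50 in the monocyte/macrophage gate.

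Among genes that act with the family in defence, 1 was called in each of the 5 gates, Sqstm1, an autophagy receptor that was lower. Casp4, the caspase that senses bacterial lipopolysaccharide, was at 202 and 207 CPM against 213, 314 and 255 CPM in the monocyte/macrophage gate and was not called. Of the 5 prenylation enzymes Fnta and Rce1 were lower in the endothelium, fibroblasts, the monocyte/macrophage gate and B cells, and Fnta alone in T cells. Sqstm1, Fnta, Rce1, Ifnar2 and Ifnar1 also had every disease library below both controls in each of the 5 gates. The same was so for 20.7 to 26% of all genes tested in a gate. The first 300 bases of these named genes had 65%, 73%, 68%, 70.7% and 61% GC. Ifnar1 was thus near the median over all genes tested (60.3 to 60.7%), and the others were above it. The part of base composition in these falls was not tested. Pggt1b, a subunit of the enzyme that attaches geranylgeranyl groups, was at 62.0 and 64.4 CPM against 61.4, 80.3 and 64.3 CPM in the endothelium and was not called.

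Genes outside the family were ranked by their likeness to the summed family level over the 29 sums of a lineage in a library with at least 50 cells, among 6029 genes with a mean of at least 20 CPM. The most alike were Tgtp2 (Pearson's r 0.94), Igtp (0.92), Psmb10 (0.86), Bst2 (0.85), Cxcl9 (0.84), Tap2 (0.84), Uba7 (0.83), Irgm2 (0.83), Parp14 (0.83) and Ifit3 (0.83). These r values are of log2(CPM + 1) over sums that share libraries and lineages, and carry no p. Within the family the 36 pairs had a median r of 0.69, from 0.91 for Gbp2 with Gbp5 to 0.18 for Gbp2b with Gbp9.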

How the data were processed

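The authors deposited raw counts of UMIs per gene and barcode for 5 libraries of heart cells. Per the file headers these came from software version 3.1.0, and the submitters' processing notes name Cell Ranger, Seurat and the builds mm10 and GRCh38. Barcodes were kept from 500 UMIs and 200 genes upward where the mitochondrial share was 10% or less. Scrublet's automatic threshold called 0.07% of 1 library, so, after seeing the data, the cells with the highest scores were removed at a rate of 0.8% per 1000 cells (2474 cells, 6.46%). A cell joined the lineage with the highest share of its markers, given at least 3 markers and a runner-up at 0.67 of that share or less. UMIs were summed per library and lineage, using gates with at least 50 cells in every library for group tests and all sums of at least 50 cells for lineages. Tests used edgeR 4.0.16 (TMM, filterByExpr, quasi-likelihood F test, Benjamini-Hochberg adjustment over all genes of a fit, threshold 0.05) and, as alternatives, DESeq2 1.42.0, RLE factors, no filter, each library left out, 25% mitochondrial UMIs, doublets kept, a stricter gate, equal cell numbers and at least 2 chemokine UMIs. SEs are those of the log2 fold change, from its F statistic. Levels use plain totals, and no length correction was made, since a 5′ UMI counts 1 molecule. The fits were also run on simulated counts, with a log2 difference of 2 in 200 genes and a dispersion of 0.05 for every gene. Of the changed genes tested, 78.5 to 100% were called, depending on the comparison. The members' own spread between libraries was not simulated, so these shares do not show what could be detected for them. All 9 members and every gene of 6 pathway lists may be named (4 of 59 listed genes had no row in the files used), as may the 10 genes most alike, except that 1 listed gene is not reported here. The members and lists were chosen with earlier results of these data known. Annotation was GENCODE release M21 (99.86% of feature IDs matched) and RefSeq GRCm38.p6.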

Additional observations from a re-analysis of the deposited data

How the results depend on the processing

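No paired analysis was possible because the control libraries carry the numbers 1 and 2 and the disease libraries 3, 4 and 5, and no number is shared between the groups. The count of members called in a group comparison within a gate stayed at 0 with DESeq2, RLE factors, each library left out, 25% mitochondrial UMIs, doublets kept, the stricter gate and equal cell numbers. Without the filter on low counts it was 8 in the monocyte/macrophage gate, 1 in T cells and 1 in B cells. That setting also gave 1 member higher in fibroblasts than in the monocyte/macrophage gate, 2 lower in fibroblasts than in B cells and 2 lower in the monocyte/macrophage gate than in T cells. Under the stricter gate 0 members were lower in the endothelium than in B cells. The cause of these changes was not tested.

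With 1 library left out, the members' median log2 fold change ran from -0.042 to 1.23 in the endothelium, from 0.74 to 3.18 in the monocyte/macrophage gate and from -0.072 to 0.96 in B cells. Counts ran from 0 to 1 for members lower in the endothelium or in T cells than in B cells, from 1 to 3 for higher and 2 to 4 for lower in fibroblasts than in T cells, from 3 to 6 for higher in fibroblasts than in B cells, and from 0 to 2 for lower in the monocyte/macrophage gate than in T cells. For the lineage by group term they ran from 0 to 7 (endothelium minus fibroblasts), 0 to 1 (endothelium minus monocyte/macrophage gate) and 0 to 6 (fibroblasts minus T cells).

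Of the 17 single log2 values that changed sign, 0 were called with all libraries and the settings of the report. With 1 library left out, disease minus control in the endothelium ran from -0.10 to 0.89 for Gbp3, -0.11 to 1.01 for Gbp4, -0.075 to 1.53 for Gbp6, -0.14 to 0.77 for Gbp7 and -0.0091 to 0.54 for Gbp9. In T cells it ran from -0.14 to 7.66 for Gbp5 (the highest without control replicate 1, which leaves a control at 0 UMIs, so that it is no bound), -0.093 to 0.36 for Gbp7 and -0.49 to 0.28 for Gbp9. With equal cell numbers the T cell value was -0.13 for Gbp2 and -0.021 for Gbp8, and under the stricter gate -0.015 for Gbp9. Between lineages the ranges were -1.11 to 0.29 for Gbp4 (B minus fibroblast), -0.22 to 0.48 for Gbp9 (B minus monocyte/macrophage), -0.24 to 0.39 for Gbp3 (B minus T, 0.20 under the stricter gate), -0.0010 to 0.82 for Gbp2b (endothelial minus T), -0.15 to 0.022 for Gbp2 (fibroblast minus monocyte/macrophage), -0.13 to 0.46 for Gbp7 (fibroblast minus T) and -0.27 to 0.074 for Gbp6 (monocyte/macrophage minus T, 0.060 under the stricter gate). The 95 T cells of control replicate 2 limit what could be detected in that gate.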
